A study of Mus musculus with 12 samples.

Results

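Neuronal nuclei of mice that lack the lysosomal enzyme SGSH were compared with those of wild-type (WT) mice by ATAC-seq, in which a transposase cuts and tags accessible DNA. The comparison holds the 4 libraries labelled as NeuN+ nuclei, out of 12 in the series, and all 107627 peaks of their table. There were 2 WT and 2 SgshKO libraries, all from forebrain of C57BL/6 mice at 4 months of age. Nuclei of both genotypes were fixed lightly (0.1% formaldehyde, 10 min), stained with DAPI and antibodies, and sorted as PU.1-, OLIG2- and NEUN+. The labels give neither the kind of Sgsh allele, the sex of the mice nor the number of animals behind a library. They do not say that replicates are separate animals, so p-values measure the spread between these libraries, which may be technical.

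SGSH removes sulfate from the glucosamine ends of heparan sulfate, 1 step in the ordered breakdown of this glycosaminoglycan in lysosomes. Its loss in humans causes Sanfilippo syndrome type A, a childhood disorder in which heparan sulfate is stored in brain cells. NeuN is the splicing regulator encoded by Rbfox3, found in the nuclei of most mature neurons, so a NeuN+ sort mixes excitatory and inhibitory neurons of many regions. Accessible promoters lie at gene starts and often in GC-rich DNA, whereas accessible distal sites include enhancers, which differ more between neuron types.

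The promoters of 5 genes are printed because the largest contrasts in the NeuN+ table concern start sites and their base composition. Sgsh is the inactivated gene, and Cry2 and Slc17a7 are start sites with lower signal in SgshKO nuclei. Zfp317 and A830036E02Rik are start sites with higher signal in those nuclei. Each is the 250 bases upstream of the start in RefSeq (GRCm38.p6), 5′ to 3′ on the gene's strand. Capitals mark the GC box GGGCGG and the 8 letters CACGTGAC, the core of the element bound by MITF, TFEB and TFE3, on either strand.
Sgsh, chr11:119355511-119355760, - strand: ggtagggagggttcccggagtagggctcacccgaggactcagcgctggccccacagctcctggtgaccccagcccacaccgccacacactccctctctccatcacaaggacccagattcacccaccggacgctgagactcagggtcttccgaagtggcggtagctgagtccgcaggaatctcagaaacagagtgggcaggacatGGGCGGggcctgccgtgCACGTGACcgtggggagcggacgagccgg
Cry2, chr2:92434070-92434319, - strand: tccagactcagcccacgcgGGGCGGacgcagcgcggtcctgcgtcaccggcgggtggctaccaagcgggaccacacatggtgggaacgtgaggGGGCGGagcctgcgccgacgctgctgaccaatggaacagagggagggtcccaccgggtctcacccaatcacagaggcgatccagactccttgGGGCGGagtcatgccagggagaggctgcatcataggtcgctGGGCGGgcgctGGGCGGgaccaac
Slc17a7, chr7:45163671-45163920, + strand: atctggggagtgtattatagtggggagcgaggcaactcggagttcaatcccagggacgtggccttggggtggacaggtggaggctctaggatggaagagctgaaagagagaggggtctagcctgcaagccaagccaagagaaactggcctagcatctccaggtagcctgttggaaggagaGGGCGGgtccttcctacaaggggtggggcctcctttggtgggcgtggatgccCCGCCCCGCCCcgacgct
Zfp317, chr9:19622054-19622303, + strand: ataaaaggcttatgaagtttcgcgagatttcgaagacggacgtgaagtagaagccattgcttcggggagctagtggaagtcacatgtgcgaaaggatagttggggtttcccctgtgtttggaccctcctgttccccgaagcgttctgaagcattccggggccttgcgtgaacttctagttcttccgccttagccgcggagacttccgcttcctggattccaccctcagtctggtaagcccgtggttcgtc
A830036E02Rik, chr11:99416993-99417242, + strand: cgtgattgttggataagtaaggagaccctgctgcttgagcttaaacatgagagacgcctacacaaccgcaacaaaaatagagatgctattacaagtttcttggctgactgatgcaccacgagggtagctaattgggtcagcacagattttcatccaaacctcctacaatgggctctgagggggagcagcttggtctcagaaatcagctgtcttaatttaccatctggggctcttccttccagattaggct
The Sgsh stretch is 66.0% G or C and holds 1 GC box and 1 copy of CACGTGAC. The Cry2 stretch has 68.8% and 5 GC boxes, and that of Slc17a7 has 61.2% and 3. Both stretches with higher signal, at 53.6% and 46.8%, hold 0 copies of either motif. The printed stretches do not stand for all starts. Gpc5 and Syt1 had lower signal (log2 change -1.43 and -0.99) with upstream stretches of 51.2% and 56.4% G or C.

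The libraries held 17653808 and 17706971 reads in WT and 14326703 and 15750361 in SgshKO, with a median of 17 to 22 reads per peak. Of these reads, 26.3% ± 0.551 (SD, n = 2) fell into peaks for the WT group, compared with 21.4% ± 0.224 for SgshKO. The part of this difference in the results was not tested. Values are normalized tags, which are reads scaled by the authors to a library total of 10000000. The peaks were merged by the authors over these same WT and SgshKO libraries, so that a site entered the table for signal in either genotype. A site with a few tags in 1 genotype may have entered through the other alone. Its p-value then carries that selection, here and below. Of the fixed neuron marker genes, 12 of 12 had a peak within 1000 bp of a start site. This held for 0 of 15 microglia, 5 of 12 oligodendrocyte, 4 of 10 astrocyte, 2 of 4 oligodendrocyte precursor, 1 of 10 endothelial and 2 of 4 mural marker genes. All neuron markers thus had an open start site in the sort labelled NeuN+, and no microglia marker did.

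The start site of Sgsh itself had less signal in SgshKO nuclei. Its peak (mm10, chromosome 11, 119355412 to 119355635, 13 bp from the TSS, class promoter-TSS) held 34.6 and 22.6 normalized tags in the WT libraries and 9.07 and 13.33 in the SgshKO libraries. The groups did not overlap. The log2 change was -1.27 ± 0.28 (SE), with an adjusted p of 0.00256 (limma, Benjamini-Hochberg over all peaks). DESeq2 did not call it (adjusted p = 0.166), nor did edgeR's likelihood-ratio test without WT replicate 1 (0.0952) or without SgshKO replicate 1 (0.0559). After a correction that took out GC content and the common promoter level, the change was -0.59 and not called (limma adjusted p = 0.141). The matched peak in Olig2+ nuclei changed by -0.11, and the 2 changes differed (limma interaction, adjusted p = 0.00329). A promoter's accessibility does not check the genotype label. In sorted bulk nuclei, fewer nuclei of a type and less accessibility per nucleus cannot be told apart, here and below.

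Accessibility differed between genotypes at a large share of sites, in both directions. At an adjusted p under 0.05 limma called 32105 peaks, 29.8% of the table, of which 11008 (10.2%) were higher and 21097 (19.6%) lower in SgshKO. DESeq2 on the recovered reads called 4900 (2671 higher, 2229 lower), and edgeR's quasi-likelihood test called 29497 (17181 higher, 12316 lower). The balance of directions turned with the scaling: 34.3% of limma calls were higher as deposited. Median-of-ratios scaling gave 57.7% (16165 higher, 11835 lower), and the median log2 change of all peaks went from -0.23 to -0.03. Single peaks are therefore described as held where limma called them in the same direction with deposited totals, median-of-ratios scaling and quantile normalization, and the 2 groups did not overlap. There were 8987 held peaks with higher signal (8.35%) and 6269 with lower signal (5.82%), with median log2 changes of 1.24 and -1.17. Without any 1 library, edgeR's likelihood-ratio test still called 11621 to 13241 of these 15256 peaks in the same direction. DESeq2 called 4030 of them.

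Promoters and distal sites moved apart. Among the 23397 peaks within 1000 bp of a TSS, 324 (1.38%) were held with higher and 2837 (12.1%) with lower signal. The 84230 distal peaks showed the opposite balance, with 8663 (10.3%) higher and 3432 (4.07%) lower. The median promoter peak held 29.5 and 28.2 normalized tags in the WT libraries and 20.2 and 19.7 in the SgshKO libraries, and the groups did not overlap. For distal peaks the medians were 11.3 and 11.3 against 11.2 and 10.8. The share of in-peak reads that lay in promoters does not depend on the scaling of a library, and it was 51.6% and 50.6% in WT, as against 43.0% and 42.9% in SgshKO. The 2 libraries of each genotype lay closer to each other than to either library of the other genotype. With 2 against 2 libraries an exact permutation test cannot give a p below 0.333. The difference of the promoter and distal median log2 changes was -0.42, and it stayed below 0 after each alternative scaling, at -0.25 after quantile normalization.

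The change followed the distance to the nearest start site step by step. The median log2 change was -0.58 within 100 bp, -0.49 from there to 1 kb, -0.30 from 1 to 5 kb, -0.23 from 5 to 20 kb and -0.06 from 20 to 100 kb. Beyond that it was above 0, with 0.27 from 100 to 500 kb and 0.71 farther than 500 kb. Sites within 100 bp of a start took 28.7% and 28.1% of in-peak reads in WT and 23.5% and 23.5% in SgshKO. Those at 100 to 500 kb took 5.85% and 6.07% in WT and 8.69% and 8.73% in SgshKO. Near sites thus lost and far sites gained share in both SgshKO libraries. Of the 954 peaks farther than 500 kb from a start, 368 (38.6%) were held with higher and 15 with lower signal. The order from promoters (lowest) to sites over 100 kb away (highest) held in each of 5 equal groups of peaks by mean signal, where the promoter medians ran from -0.59 to -0.37 and those over 100 kb from 0.19 to 0.61.

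**Figure D1:**
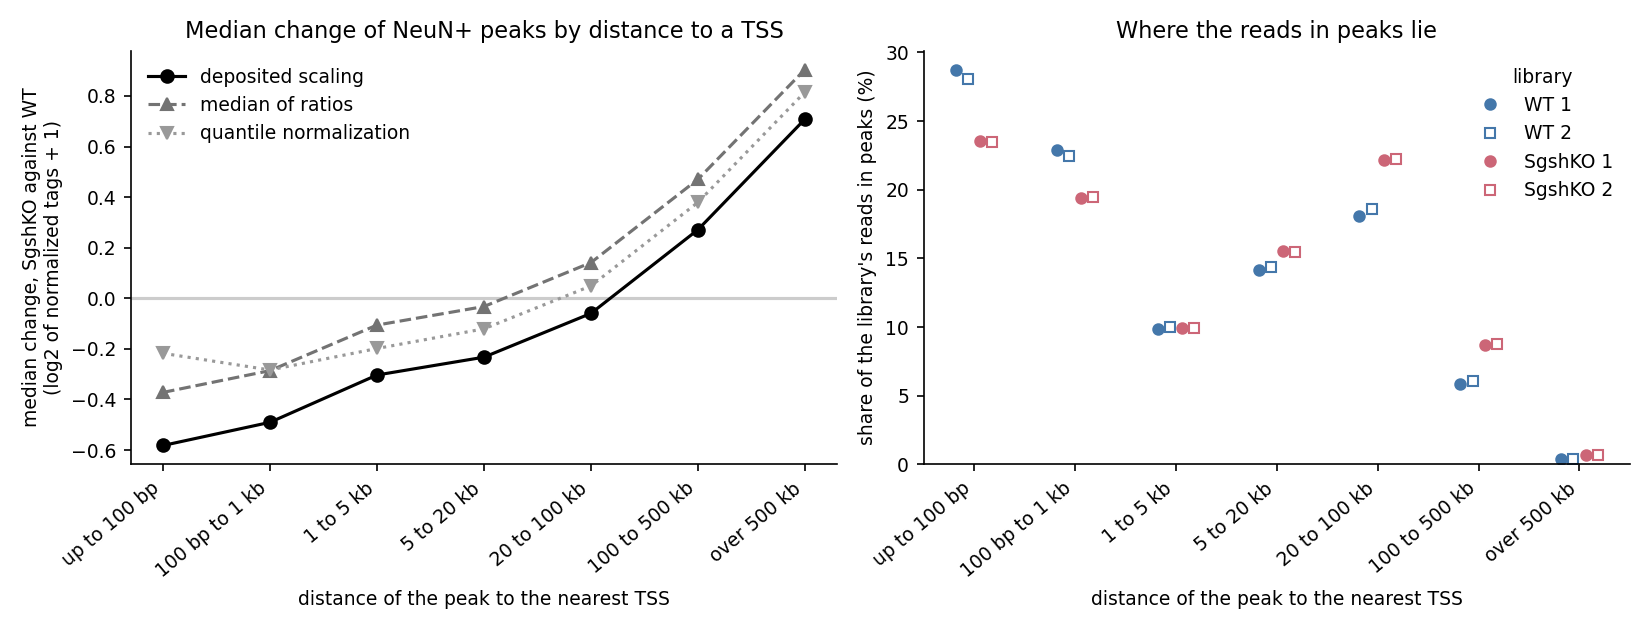
Left, the median log2 change (SgshKO against WT) of NeuN+ peaks on the vertical axis in 7 bands of distance to the nearest TSS, with deposited scaling (circles), median-of-ratios scaling (upward triangles) and quantile normalization (downward triangles). Right, the share of each library's in-peak reads (%) in the same bands, WT in blue and SgshKO in red, replicate 1 filled and replicate 2 open. With deposited scaling the medians run from -0.58 near starts to 0.71 beyond 500 kb, and the share within 100 bp is 28.7% and 28.1% in WT against 23.5% in both SgshKO libraries.

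The classes that the authors' annotation gives showed the same division. Intergenic peaks had a median log2 change of 0.07, with 15.4% held higher and 3.14% held lower. Intronic peaks stood at -0.17, with 7.95% higher and 4.26% lower. Exonic peaks fell most among these classes, with a median of -0.60 and 46 held higher against 618 held lower. Distal peaks also differed by the length of the nearest gene: the median was -0.24 for genes of 5 to 20 kb and 0.28 for genes over 500 kb, where 710 of 3350 peaks (21.2%) were held higher. Promoter peaks of those longest genes had a median of -0.63, with 4 of 436 held higher and 70 held lower. At the longest genes, start sites and distal sites thus moved in opposite directions. Peaks on the Y chromosome stood apart: 12 of 22 (54.5%) were held lower and 0 higher. Their median was -1.13, against -0.23 on the autosomes and -0.23 on X. Whether the libraries differ in the sex of the mice was not tested.

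Among promoters the change followed base composition. RefSeq windows from 250 bases upstream to 50 downstream of a start could be matched to 9472 promoter peaks. In 5 groups from the lowest to the highest GC content, the median log2 change was -0.25, -0.46, -0.59, -0.69 and -0.75. The lowest group (33.3% to 55.3% GC) held 82 peaks with higher and 68 with lower signal, and the highest group (70.3% to 89.3%) held 0 and 507. In the lowest group lay 11.2% and 11.4% of the WT reads of these peaks and 14.2% and 14.2% of the SgshKO reads. The share in the highest group was 23.8% and 23.4% in WT and 20.9% and 20.9% in SgshKO, so that both SgshKO libraries held more AT-rich and fewer GC-rich promoter reads. In Olig2+ nuclei the order was the reverse, with medians of -0.13 in the lowest and 0.25 in the highest group of the matched peaks.

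**Figure D2:**
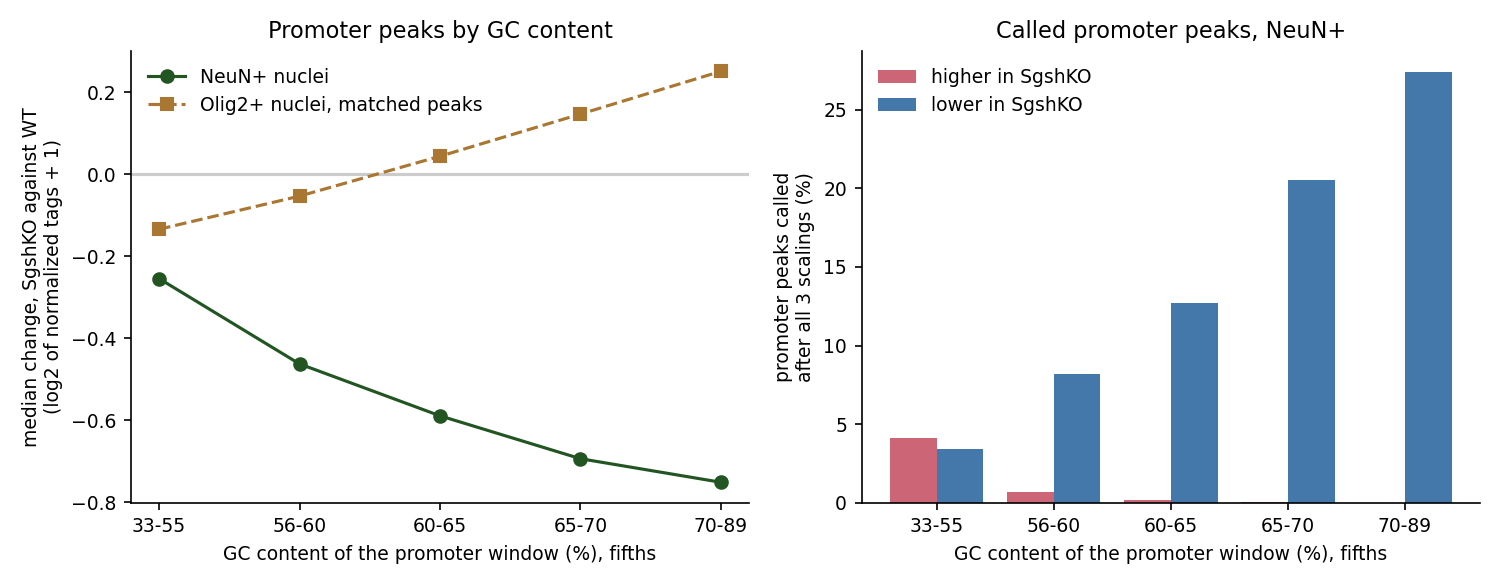
Left, the median log2 change (SgshKO against WT) of promoter peaks by group of GC content of the promoter window (%, horizontal axis) in NeuN+ nuclei (green circles) and in the matched peaks of Olig2+ nuclei (brown squares). Right, the percentage of NeuN+ promoter peaks in each group called higher (red) or lower (blue) in SgshKO after all 3 scalings. The NeuN+ medians go from -0.25 to -0.75 while those of Olig2+ nuclei go from -0.13 to 0.25.

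The promoter calls were therefore also read after each library had been corrected for GC content by a loess fit over these 9472 peaks. The fit took out each library's common promoter level along with GC content, so the median of all 9472 went from -0.57 to -0.01. The parts of the 2 in a lost call were not separated. Fitted alone with deposited totals, limma called 147 of the peaks higher and 6135 lower. After centring each library on its own median the split was 1220 and 994, and after the GC correction it was 904 and 696. Of the 1352 held promoter peaks with lower signal, 519 were still called lower after the GC correction, and of the 98 with higher signal 91 were still called higher. The start sites of Slc17a7 (-0.92, adjusted p = 0.000249), Gpc5 (-1.08, adjusted p = 2.54e-07) and Syt1 (-0.57, adjusted p = 0.000398) were among those that kept the limma call. Those of Npas4 (-0.18, adjusted p = 0.282), Naglu (-0.06, adjusted p = 0.858) and Fos (0.03, adjusted p = 0.937) were not called.

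Promoters with some factor motifs had a median change nearer to 0 than promoters without them. Motifs were searched as exact letters on both strands of the 300-base windows. GCGCATGC, part of the site of NRF1, a regulator of nuclear genes for mitochondria, was in 5.92% of the matched windows and in 2.71% of all RefSeq promoter windows. Promoter peaks with it had a median change of -0.44, against -0.58 without it, and the difference was between 0.11 and 0.19 in all 5 GC groups. The ETS site CCGGAAG (1704 matched windows, and 8.86% of all windows) showed -0.48 against -0.59, with 0.06 to 0.13 within GC groups. CACGTGAC (4.48% and 2.25%) showed -0.51 against -0.57, with 0.06 to 0.10 within GC groups. The cAMP response element TGACGTCA (3.57% and 1.79%), bound by CREB downstream of neuronal activity, showed -0.55 against -0.57. The GC box GGGCGG (69.8% and 35.7%) went the other way, with -0.64 against -0.40 and -0.13 to -0.05 within GC groups. The AP-1 site TGACTCA (3.23% and 5.20%) showed -0.50 against -0.57, TATAAA (5.77% and 13.6%) -0.48 against -0.58, and CCAAT (39.0% and 37.4%) -0.53 against -0.60. The AP-1 and TATAAA differences had the same sign in only 2 of the 5 GC groups. These matches are letters in a window and no test was made on them.

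The largest promoter decrease lay on chromosome 13, where 2 genes on opposite strands have separate start-site peaks next to each other. The peak of 3110070M22Rik (119488307 to 119488533, 36 bp from the TSS) held 368 and 329 normalized tags in WT and 46.1 and 60.3 in SgshKO, a log2 change of -2.70 ± 0.12 (limma adjusted p = 1.34e-10). Tmem267, whose peak lies next to it (119487911 to 119488207), had 27.2 and 20.3 against 4.89 and 4.44. Both SgshKO libraries lay far under both WT libraries at these sites. The matched Olig2+ peak of 3110070M22Rik fell too, from 177 and 171 tags to 64.6 and 69.8 (-1.36, limma adjusted p = 1.93e-09). The other large decreases were at Tec, a non-receptor tyrosine kinase (-2.01 ± 0.32), Chrna4, the alpha4 subunit of the nicotinic acetylcholine receptor (-1.99 ± 0.34), Rgs16, a regulator of G-protein signalling (-1.99 ± 0.33), and Pcsk6, a proprotein convertase (-1.95 ± 0.34). For Chrna4 the libraries held 18.7 and 21.5 tags in WT and 2.79 and 6.35 in SgshKO. Limma gave adjusted p-values of 0.000199 for Tec and 0.000416 for Chrna4, and DESeq2 did not call Chrna4 (0.0534).

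Few promoters were held with higher signal (1.38%), and most of the largest gains started from low WT values. The number of gains depended on the scaling. Among promoter peaks with a RefSeq window, limma called 147 higher and 6135 lower with deposited totals. After centring each library on its own median it called 1220 and 994. Ces1a, a carboxylesterase gene, went from 3.40 and 5.65 normalized tags in WT to 20.2 and 22.9 in SgshKO at a peak 525 bp from its TSS, a log2 change of 2.06 ± 0.32 (limma adjusted p = 0.000149). A peak 979 bp from the TSS of Tgfbr1, the type I receptor of TGF-beta, held 7.93 and 9.04 in WT and 29.3 and 25.4 in SgshKO. C2cd2l (1.39 ± 0.25), Mir344c (1.54 ± 0.26) and A830036E02Rik (1.40 ± 0.25), whose upstream sequence is printed above, were also held. Pisd-ps3, a pseudogene on an unplaced contig (JH584304), held 438 and 485 tags in WT and 1185 and 1218 in SgshKO. Reads of such a copy can be split between near-identical sequences, which makes its value uncertain. It was higher in Olig2+ nuclei too, by 0.98 against 1.38 in NeuN+ nuclei.

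The largest distal increase was present in all SgshKO libraries and absent from all WT libraries of both nuclei sorts. This peak of 201 bp (chromosome 1, 24613018 to 24613218, intergenic, 25681 bp from the TSS of Col19a1) held 0 reads in each NeuN+ WT library and 700 and 809 reads in the SgshKO libraries, or 489 and 514 normalized tags. Taking 3 reads as the floor of each WT library, it was at least 295-fold higher. The matched Olig2+ peak had 0 and 0 tags in WT and 731 and 693 in SgshKO. How reads map at this site, and whether its DNA sequence differs between the genotypes, was not tested. Next came sites near Olfr344, an odorant receptor gene (1.70 and 2.26 tags against 30.7 and 38.1), Esp15 (3.23 ± 0.36), Tmem65 (3.09 ± 0.36) and 4933416C03Rik (2.90 ± 0.35). An intron 2 site of Cdh10, a cadherin of synapses, rose from 2.83 and 2.26 to 24.4 and 29.8 tags (log2 change 2.99 ± 0.32, limma adjusted p = 4.69e-06). These rises started from WT values of a few tags. Such sites may have entered the table through their SgshKO signal alone, so their p-values are no separate support for a gain.

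The largest distal decreases included several strong and narrow sites. A peak between genes near Rpp21 (chromosome 17, 36231458 to 36231658) fell from 591 and 570 normalized tags to 69.1 and 60.3, a log2 change of -3.15 ± 0.09 (limma adjusted p = 2.56e-13). An intron 5 site of the X-linked synaptic receptor gene Il1rapl1 fell from 378 and 304 to 44.7 and 34.3. Sites near Hrh2 (-3.65 ± 0.39), Plekha1 (-3.29 ± 0.23), Timm8a1 (-3.14 ± 0.14) and Sp3 (-2.95 ± 0.19) were also held. Among the 304 distal peaks with a mean of at least 100 tags, 8 had a log2 change under -2 and the next lowest stood at -1.24. This group was chosen after its values were seen. All 8 were 201 to 208 bp long, against a median of 251 bp for the others, and each overlapped an Olig2+ peak whose change was between -2.18 and -1.31.

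Start sites of neuron marker genes had less summed signal in SgshKO nuclei, with a share of held peaks near that of all promoters. The 38 promoter peaks of the 12 neuron markers summed to 1560 and 1503 normalized tags in WT and 860 and 924 in SgshKO. Of these peaks 5 were held with lower (13.2%, against 12.1% over all promoters) and 0 with higher signal, and their median change was -0.65, against -0.53 over all promoter peaks. Rbfox3, which encodes NeuN, had 32.3 and 28.8 tags at its start in WT and 21.6 and 17.1 in SgshKO (log2 change -0.64 ± 0.22, limma adjusted p = 0.039). It was not held and DESeq2 did not call it (0.63). Snap25 (-0.83 ± 0.14) was called with deposited totals but not held, and Syt1, the calcium sensor of vesicle release (178 and 174 tags against 78.9 and 99.0), was held. The astrocyte promoter peaks summed to 246 and 219 tags in WT, as against 165 and 173 in SgshKO. The oligodendrocyte ones summed to 186 and 154 against 87.2 and 91.4, and 0 of 11 astrocyte and 1 of 5 oligodendrocyte promoter peaks were held lower.

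Some start sites of both excitatory and inhibitory identity genes were held with lower signal, as were some of all promoters (12.1%). Of 48 promoter peaks of the excitatory list 14 were held lower (29.2%) and 0 higher (median -0.81). Of 22 of the inhibitory list 4 were held lower (18.2%) and 0 higher (median -0.67). The median over all promoter peaks was -0.53. After the GC correction 1 of 9 excitatory windows was called lower and 0 higher, and of 7 inhibitory windows 1 was lower and 1 higher. No test was made of the difference between the lists. The start of Slc17a7, the vesicular glutamate transporter of cortical excitatory neurons, held 86.7 and 70.6 tags in WT and 27.9 and 24.8 in SgshKO (log2 change -1.54 ± 0.18, limma adjusted p = 9.55e-06). Camk2a, the alpha subunit of the postsynaptic kinase CaMKII, fell from 107 and 106 to 45.4 and 42.5 at its start, and a site in intron 1 fell from 109 and 102 to 41.9 and 43.2. Both SgshKO libraries lay under both WT libraries at these 3 sites. Gad1, which makes GABA, held 13.0 and 7.91 tags against 3.49 and 9.52, with overlapping groups (limma adjusted p = 0.183). Gad2 had 11.3 and 10.2 against 8.38 and 7.62 and was not called (0.349).

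Distal sites of the identity lists moved in both directions. The excitatory list had 16 higher (6.18%) and 17 lower (6.56%) held peaks of 259, with a median change of -0.29. Over all distal peaks 10.3% were held higher and 4.07% lower. Sites 58419 and 38747 bp from Nrn1, a plasticity-related surface protein, were higher (2.96 ± 0.40 and 1.58 ± 0.25). The inhibitory list had 21 higher and 4 lower of 102 (median 0.19, against -0.11 over all distal peaks), among them sites near the neuropeptide genes Npy (10.8 and 13.0 tags against 29.3 and 40.6) and Vip (2.65 ± 0.41). An intron 1 site of Nr2f2 (-1.11 ± 0.18) and a site near Sox6 (-1.23 ± 0.23) were lower, and DESeq2 called neither (adjusted p = 0.0549 and 0.126).

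Region-marking lists followed the same division between starts and distal sites. The hippocampal list had 6 of 12 promoter peaks held lower (50.0%, against 12.1% over all promoters) and 0 higher, with a promoter median of -0.94. The endoplasmic reticulum protein gene Wfs1 (198 and 182 tags against 103 and 95.2) and Pou3f1 (116 and 102 against 54.4 and 57.8) were among them. After the GC correction Wfs1 was at -0.21 and not called (limma adjusted p = 0.141), and 0 of 7 hippocampal windows were called in either direction. Distal sites near Iyd were higher (1.74 ± 0.28 and 2.15 ± 0.36). Of the striatal list's 35 promoter peaks 8 were held lower (22.9%) and 0 higher, with Rgs9 going from 98.0 and 84.7 to 42.6 and 47.6 tags. Of its 172 distal peaks 16 were higher (9.30%) and 8 lower (4.65%). Among them 2 sites of Foxp1 were higher (1.33 ± 0.25 and 1.71 ± 0.32) and one near Pde10a lower (-1.17 ± 0.17). For the thalamus and hypothalamus list 2 of 7 promoter peaks were lower (28.6%). Of its 60 distal peaks 5 were higher (8.33%) and 3 lower (5.0%). The distal shares of both lists were near those of all distal peaks (10.3% higher and 4.07% lower). Tcf7l2, a Wnt-pathway factor of thalamic neurons, had a distal site at 3.97 and 3.39 tags in WT and 25.8 and 22.9 in SgshKO. Sites near Oxt (-1.27 ± 0.23) and Prkcd (-1.57 ± 0.40) were lower, and DESeq2 called neither. The olfactory bulb list had 3 promoter peaks, none held, and 7 distal ones, with Cdhr1 higher (1.20 ± 0.37) and Sp8 lower (-1.01 ± 0.25). In edgeR's likelihood-ratio test the call was lost without WT replicate 2 or SgshKO replicate 1 for Prkcd, without WT replicate 1 or SgshKO replicate 1 for Cdhr1, and without replicate 2 of either genotype for Sp8, with adjusted p up to 0.157, 0.111 and 0.158.

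Of 66 promoter peaks of immediate-early genes, the first to respond to neuronal activity, 12 were held lower (18.2%, against 12.1% over all promoters) and 1 higher, with a median of -0.70. After the GC correction 2 of 20 windows were called lower and 0 higher, with a median of -0.15. The start of Arc, an effector of synaptic plasticity, went from 188 and 164 tags to 94.2 and 83.2 (-0.98 ± 0.12, limma adjusted p = 1.39e-05), and Klf10 from 306 and 282 to 117 and 133. Egr1 (-0.70 ± 0.09) and Npas4 (-0.89 ± 0.13) were called with deposited totals but were not held. Fos held 37.4 and 33.3 tags against 27.9 and 23.5 and was not called (limma adjusted p = 0.101). At distal peaks of the list 25 were higher (8.47%) and 19 lower (6.44%) of 295, against 10.3% and 4.07% over all distal peaks. The peak nearest to Ier2 that fell most clearly, from 497 and 469 to 237 and 206 tags, lies 23272 bp away in an exon of another gene. A site 199691 bp from Klf4 rose from 31.2 and 25.4 to 54.4 and 60.3, and one near Egr2 rose by 1.69 ± 0.32.

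Late activity genes, which follow the first wave of factors, had 12 of 43 promoter peaks held lower (27.9%) and 0 higher. Over all promoters 12.1% were held lower. After the GC correction 4 of 14 windows were called lower and 0 higher. Rgs2, a brake on G-protein signalling, went from 288 and 269 tags to 127 and 112, and Homer1, a postsynaptic scaffold, from 184 and 195 to 92.8 and 96.5. Of 182 distal peaks 30 were higher (16.5%) and 11 lower (6.04%), against 10.3% and 4.07% over all distal peaks. An intron 8 site of Pcsk1, which processes neuropeptides, rose from 13.0 and 9.60 to 44.0 and 45.1 tags (1.90 ± 0.23, limma adjusted p = 1.69e-05), and an intron 1 site of Inhba from 26.1 and 24.3 to 59.3 and 56.5. The start of Bdnf nearest its TSS was not called (52.7 and 41.8 tags against 34.2 and 37.5, limma adjusted p = 0.121).

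Synaptic genes had held peaks mostly lower at starts and mostly higher at distal sites, as promoters and distal peaks had over the whole table (12.1% lower and 10.3% higher). The presynaptic list had 11 of 67 promoter peaks lower (16.4%) and 2 higher, and 37 higher (10.5%) and 12 lower of 354 distal peaks, with sites of Pclo (2.52 ± 0.42) and Erc2 (1.54 ± 0.26) higher. For glutamate receptors and postsynaptic scaffolds 15 of 88 promoter peaks were lower (17.0%) and 0 higher, with Grm7 at -1.11 ± 0.12 and Grin1, the obligate NMDA receptor subunit, at -1.05 ± 0.12. Of 736 distal peaks 97 were higher (13.2%) and 32 lower. A site 256384 bp from Gria2, which codes for an AMPA receptor subunit, rose from 3.97 and 4.52 to 26.5 and 24.8 tags. GABA receptor genes had 3 of 29 promoter peaks lower (10.3%), among them Gabbr2 (-1.05 ± 0.14), which was at -0.29 and not called after the GC correction (limma adjusted p = 0.118). Of their 174 distal peaks 27 were higher (15.5%) and 5 lower, with Gabra2 at 1.56 ± 0.26 and Gabrg1 at 1.55 ± 0.30.

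Kcnq3, a subunit of the M-type potassium channel, showed both directions within a single gene. Its peak 594 bp from the TSS fell from 161 and 152 tags to 67.0 and 69.2 (-1.19 ± 0.12), and a site 67801 bp away rose from 12.5 and 10.2 to 41.2 and 52.7 (1.96 ± 0.23). The limma adjusted p-values were 2.76e-06 and 1.27e-05. The potassium channel list had 19 of 96 promoter peaks lower (19.8%) and 0 higher, against 12.1% and 1.38% over all promoters. Of its 665 distal peaks 70 were higher (10.5%) and 31 lower (4.66%), near the 10.3% and 4.07% over all distal peaks. Kcnh1 was lower at its start (-1.13 ± 0.12) and Kcnb2 higher in an intron (1.12 ± 0.16). Sodium and calcium channel genes had 10 of 64 promoter peaks lower (15.6%) and 1 higher (1.56%). Of their 406 distal peaks 22 were higher (5.42%, under the 10.3% of all distal peaks) and 17 lower (4.19%). The start of the T-type calcium channel gene Cacna1g fell by 1.01 on the log2 scale. Introns of Cacna2d1 (1.24 ± 0.22) and Cacna2d3 (2.03 ± 0.40) held higher sites.

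**Figure D3:**
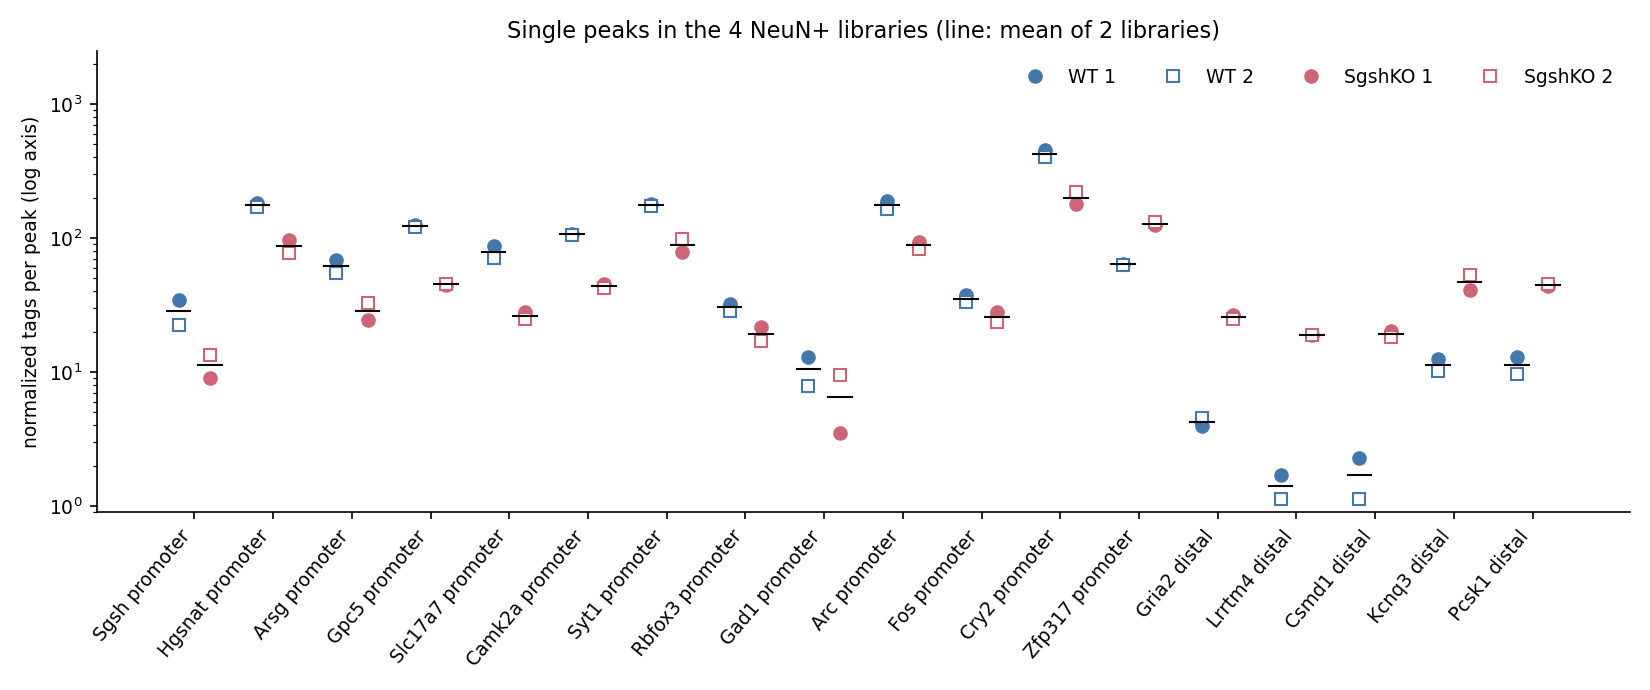
Normalized tags (vertical, log axis) of 18 single NeuN+ peaks named in the text in the 4 libraries, WT in blue and SgshKO in red, replicate 1 filled and replicate 2 open, with a line at the mean of 2 libraries. Promoter peaks such as Slc17a7 (86.7 and 70.6 against 27.9 and 24.8) are lower in SgshKO, the Zfp317 promoter and the distal peaks are higher, and the libraries of Gad1 overlap.

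Very long adhesion genes, which code for synaptic and axonal recognition proteins, had the highest share of held higher distal sites among the gene lists. Of 832 distal peaks 218 (26.2%) were held higher and 19 lower, against 10.3% and 4.07% over all distal peaks, with a median change of 0.45. Their tags summed to 9773 and 9768 in WT, as against 12480 and 12324 in SgshKO. The gain was thus present in both SgshKO libraries. A site 842802 bp from Lrrtm4 went from 1.70 and 1.13 to 18.9 and 19.1 tags (3.06 ± 0.36), and one near Csmd1 from 2.27 and 1.13 to 20.2 and 18.4 (2.94 ± 0.36). With so few WT tags, both sites may have entered the table through their SgshKO signal alone. At their starts 15 of 82 peaks were held lower (18.3%, against 12.1% over all promoters) and 0 higher, with Cadm2 at -0.96 ± 0.10. As given above, distal peaks of all genes over 500 kb showed the same direction, with 21.2% held higher.

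Some start sites of heparan sulfate breakdown genes, the pathway of SGSH, were held lower. Of 9 genes 7 had a promoter peak, and 3 of these 7 peaks were held lower and 0 higher, against 12.1% lower over all promoters. Their tags summed to 507 and 455 in WT and 272 and 266 in SgshKO. Besides Sgsh these were Hgsnat, the acetyltransferase of the lysosomal membrane (184 and 171 against 97.0 and 77.5, -1.02 ± 0.12), and Arsg, the glucosamine 3-sulfatase (69.1 and 54.8 against 24.4 and 33.0, -1.09 ± 0.19, DESeq2 adjusted p = 0.0704). Naglu (-0.72 ± 0.18) was called with deposited totals but was not held. Ids, the iduronate 2-sulfatase, held 64.6 and 54.2 tags against 39.8 and 47.0 (limma adjusted p = 0.0546), and Gusb 15.3 and 9.60 against 11.2 and 9.52 (0.611). The list had 3 windows with a RefSeq sequence, those of Sgsh, Naglu and Ids. Their median after the GC correction was -0.08, and 0 were called in either direction. Of 33 distal peaks 2 were lower (6.06%) and 0 higher, against 4.07% and 10.3% over all distal peaks. No peak within 1000 bp of a TSS had Idua as its nearest gene.

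Genes that build heparan sulfate and its core proteins had 13 of 48 promoter peaks held lower (27.1%) and 0 higher. Over all promoters 12.1% were held lower and 1.38% higher. The start of Gpc5, a glypican core protein, fell from 125 and 122 to 44.7 and 45.7 tags (-1.43 ± 0.14, limma adjusted p = 1.72e-06) and that of Hs3st1, a 3-O-sulfotransferase, from 169 and 152 to 69.1 and 56.5. Both were still called after the GC correction, where 4 of the list's 18 windows were called lower and 1 higher. At distal peaks 30 were higher (11.6%) and 8 lower (3.09%) of 259, near the 10.3% and 4.07% over all distal peaks. Sites near Ndst3 (9.63 and 11.3 tags against 39.1 and 33.0) and Hs3st3b1 (2.64 ± 0.38) were higher.

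Of 95 promoter peaks of other lysosomal genes 9 were held lower (9.47%, against 12.1% over all promoters) and 1 higher, with a median of -0.41 against -0.53. The share of lower starts was thus not above that of promoters as a whole. Galns (436 and 375 tags against 176 and 211) and Asah1, acid ceramidase (263 and 275 against 131 and 145), were the clearest decreases. Of 185 distal peaks 25 were higher (13.5%) and 3 lower (1.62%), against 10.3% and 4.07% over all distal peaks. Sites near Smpd1 (2.31 ± 0.39) and Galc (1.23 ± 0.23) were higher. Over the 43 lysosomal windows with a RefSeq sequence the median after GC correction was 0.09, with 8 called higher and 3 lower.

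The MITF, TFEB and TFE3 genes and their nutrient-sensing partners, which direct lysosomal gene expression, had 3 of 19 promoter peaks held lower and 0 higher. This share (15.8%) and the median (-0.52) were near those of all promoters (12.1% and -0.53). Over the list's 11 windows the median after the GC correction was 0.16, with 1 called lower and 0 higher. Tfeb went from 154 and 153 tags to 97.0 and 72.4 at its start (-0.87 ± 0.13) and Tfe3 from 105 and 109 to 71.2 and 66.7 (-0.63 ± 0.13). Mitf held 152 and 151 against 111 and 113 (-0.43 ± 0.11, limma adjusted p = 0.00583). None of these 3 was held, and the Mitf value was 0.14 after quantile normalization (adjusted p = 0.287). Fnip2, a folliculin partner, fell from 205 and 184 to 101 and 97.8, and after the GC correction it was at -0.21 and not called (limma adjusted p = 0.141). A site 7844 bp from Tfeb was lower (-1.16 ± 0.22) and sites far from Rragc (1.32 ± 0.27) and Tfec (1.51 ± 0.38) were higher. DESeq2 called neither the Tfeb nor the Tfec site (adjusted p = 0.125 and 0.116).

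Start sites of housekeeping genes had medians nearer to 0 than the neuronal lists. Of 113 promoter peaks of oxidative phosphorylation genes 6 were held lower (5.31%) and 1 higher (0.885%), with a median of -0.33. Over all promoters 12.1% were held lower and 1.38% higher. Ndufv3 (245 and 240 tags against 141 and 115) and Cyc1 (107 and 109 against 55.8 and 57.1) were lower. Ribosomal protein genes had 8 lower (6.25%) and 6 higher (4.69%) of 128 (median -0.28). Rpl31 (-0.97 ± 0.09) and Rps23 (-1.06 ± 0.11) were lower. Clustered histone genes had 10 lower (15.9%) and 8 higher (12.7%) of 63 (median -0.07). Hist1h2ae was higher (13.6 and 15.3 tags against 30.7 and 29.2), and Hist1h4h was lower (135 and 131 against 53.0 and 48.9). No test of these lists against the neuronal ones was made. After the GC correction the medians of oxidative phosphorylation and ribosomal protein windows were 0.08 and 0.12, those of excitatory identity and late activity genes -0.24 and -0.26 (9 and 14 windows), and that of all windows -0.01.

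Zfp zinc-finger genes, a family of repressors, had 30 lower (6.40%) and 18 higher (3.84%) of 469 promoter peaks (median -0.38). Over all promoters the shares were 12.1% and 1.38%. The start of Zfp317, printed above, rose from 64.0 and 63.3 to 124 and 131 tags (0.99 ± 0.13, limma adjusted p = 2.36e-05), while its matched Olig2+ peak changed by -0.02. Zfp131 (-1.28 ± 0.13) and Zfp746 (-1.06 ± 0.11) were lower. Of 642 distal sites of the family 65 were higher (10.1%, against 10.3% over all distal peaks) and 38 lower, with one near Zfp352 at 2.51 ± 0.35. Of distal peaks, 16 of 253 near oxidative phosphorylation genes (6.32%), 17 of 197 near ribosomal protein genes (8.63%) and 3 of 32 near clustered histone genes (9.38%) were held higher, all under the share over all distal peaks, and 11, 6 and 3 were held lower. Those higher included sites near Cox7b2 (2.67 ± 0.33), Cox7a2l (1.45 ± 0.21), Rpl30 (1.49 ± 0.25), Rpl24 (2.18 ± 0.37) and Hist1h2al (1.24 ± 0.26), and one near Hist1h2bj fell (-1.30 ± 0.15).

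**Figure D4:**
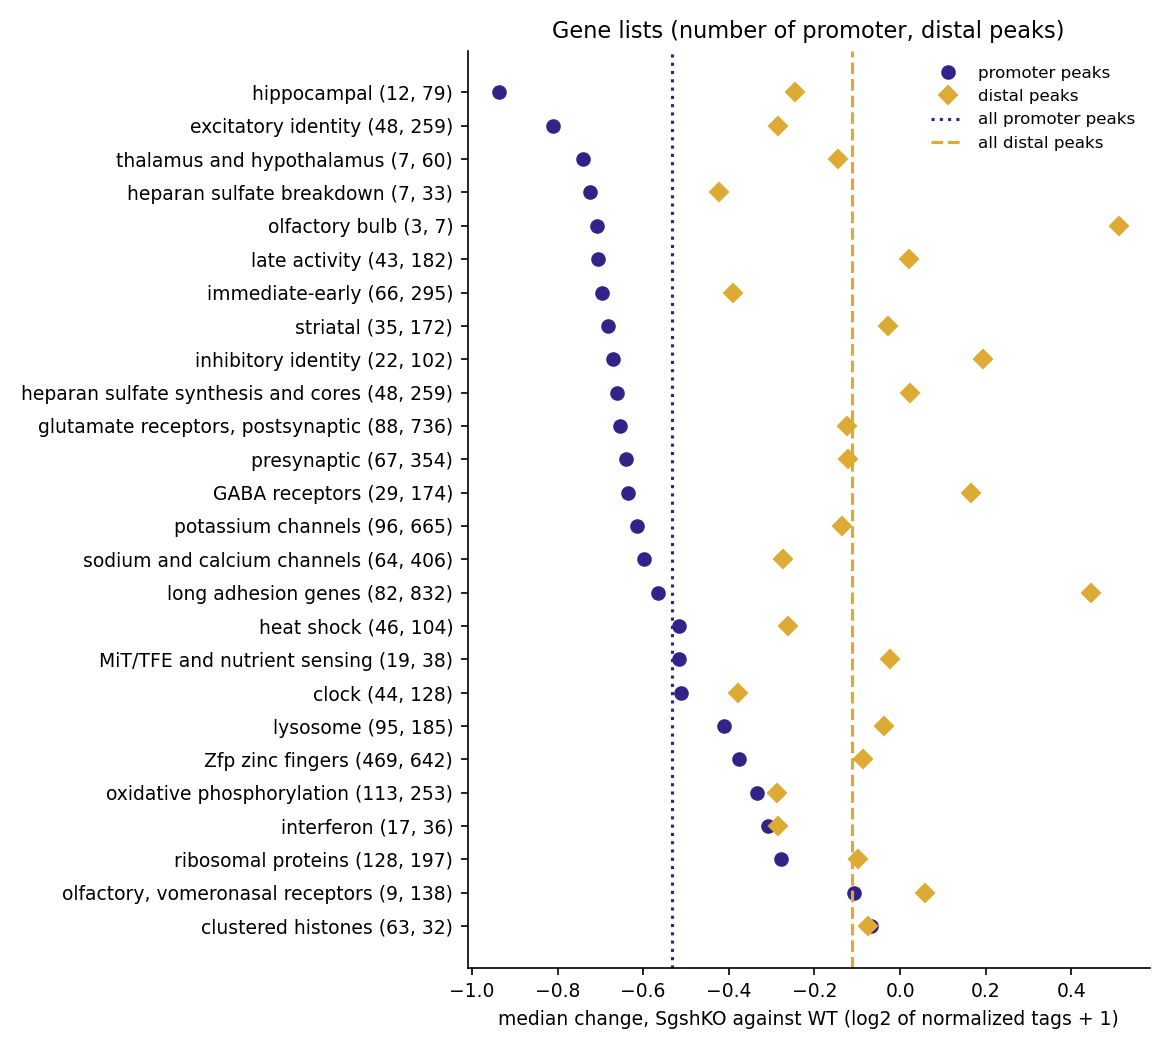
Median log2 change (horizontal axis, SgshKO against WT) of the promoter peaks (circles) and distal peaks (diamonds) of each gene list other than the cell type marker lists, with the number of promoter and distal peaks in parentheses. Vertical lines mark the medians of all promoter peaks (dotted, -0.53) and all distal peaks (dashed, -0.11). Among the lists shown, the hippocampal and excitatory ones have the lowest promoter medians (-0.94 and -0.81) and the long adhesion genes a distal median of 0.45.

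Heat-shock genes had 6 of 46 promoter peaks held lower (13.0%, against 12.1% over all promoters) and 0 higher, with Hsp90ab1 (137 and 124 tags against 49.6 and 49.5) and Dnajb1 (430 and 403 against 252 and 232) lower. After the GC correction Dnajb1 was at -0.05 and not called (limma adjusted p = 0.642), and of 19 heat-shock windows 3 were called higher and 0 lower. Clock genes had 3 of 44 lower (6.82%, under the 12.1% over all promoters) and 0 higher. Cry2, the repressor printed above, went from 452 and 402 to 181 and 219 (-1.10 ± 0.09, limma adjusted p = 5.56e-07). A site near Per1 was lower (-1.05 ± 0.15), and 2 sites near Cry1 were higher (1.45 ± 0.23 and 2.02 ± 0.41, the second with a DESeq2 adjusted p of 0.0613). Of 17 interferon-response promoter peaks 0 were held in either direction, and limma with deposited totals called 5 lower and 0 higher. Introns of Mx1 held higher sites (1.55 ± 0.29 and 1.92 ± 0.41) and an exon of Irf3 a lower one (-1.27 ± 0.28). Near olfactory and vomeronasal receptor genes, which are silent in most neurons, 22 of 138 distal peaks were higher (15.9%) and 5 lower (3.62%). Over all distal peaks the shares were 10.3% and 4.07%. A site near Olfr994 held 9.06 and 10.2 tags in WT and 46.8 and 45.7 in SgshKO. Olfr750 (-1.18 ± 0.21) and Olfr1423 (-1.31 ± 0.27) had lower sites nearby, and DESeq2 called neither (0.0839 and 0.172). The edgeR likelihood-ratio test lost Olfr1423 without SgshKO replicate 2 (0.0834) and Irf3 without SgshKO replicate 1 (0.0638), and DESeq2 did not call Irf3 (0.248).

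Olig2+ nuclei, of the oligodendrocyte lineage and fixed and sorted in the same way, did not show the decrease of the promoter median. A one-to-one overlap of at least 50% of both peaks paired 29576 sites. The genotype change differed between the sorts at 10361 of them (35.0%, limma interaction, adjusted p under 0.05), with 972 changes higher and 9389 lower in NeuN+ than in Olig2+ nuclei. At the 14434 paired promoters the median change was -0.57 in NeuN+ and 0.06 in Olig2+ nuclei, and 7118 were lower and 250 higher in NeuN+. At the 15142 paired distal sites it was -0.41 and -0.21, and 2271 were lower and 722 higher. Over all 20120 promoter and 62457 distal peaks of the Olig2+ table the promoter median exceeded the distal one by 0.18, whereas in NeuN+ nuclei it was lower by -0.42 on the same scale. The share of reads in peaks in Olig2+ nuclei was 31.8% ± 0.0327 (SD, n = 2) for WT, compared with 31.4% ± 0.652 for SgshKO, so that the genotypes were closer there than in NeuN+ nuclei.

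Named start sites differed in how they compared between the sorts. Klf10 changed by -1.23 in NeuN+ and 0.95 in Olig2+ nuclei (limma interaction, adjusted p = 6.08e-12), Pou3f1 by -0.94 and 0.83, and Kcnq3 by -1.19 and 0.64. Arc changed by -0.98 and 0.45 (adjusted p = 2.74e-09). Homer1 fell alike, by -0.99 and -0.91, and the difference was not called (adjusted p = 0.754). The Mitf changes of -0.43 and -0.10 did not differ past the threshold either (0.0847).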

How the data were processed

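ATAC-seq was made by tagmenting about 200K sorted nuclei a library, with 8 to 12 PCR cycles and size selection to 155 to 250 bp, per the labels' protocols. Reads were aligned to mm10 with Bowtie2 and peaks handled with HOMER, per the submitters' processing notes. Tool versions are not stated here. Deposited signal values are tags per peak, scaled by the authors to a library total of 10000000, with the nearest gene and distance. The deposited peak score (540 to 1000) served only as a filter. All values came out as whole reads (100% within 0.01) at the totals in the file headers, so counts could be recovered.

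Genotypes were compared with limma 3.58.1 (R 4.3.3, eBayes with trend) on log2(tags + 1) over all 107627 peaks, with Benjamini-Hochberg adjustment, without a block on replicate number. The pseudocount makes fold changes of low peaks too small. Recovered reads were tested with edgeR 4.0.16 and DESeq2 1.42.0 as alternatives. Peaks were paired with Olig2+ peaks with GenomicRanges 1.54.1. Other steps used Python 3.11.15. Calculations were tested on simulated data. In addition, 202 gene symbols that had turned into dates were restored, and 0 tag columns were left over.

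Named peaks are the Sgsh start, the 6 largest held changes in each direction among promoters and among distal peaks, up to 2 in each direction for each gene list, and 22 fixed genes. Of the 122 held named peaks, edgeR's quasi-likelihood test called 122 and DESeq2 105. The comparison, lists and genes were chosen with earlier results of these data known. Alternatives added after seeing the data are the likelihood-ratio test, the support of held peaks and the GC correction. The same-numbered libraries' deviations correlated at 0.0036. The other libraries of the series were not used here, except Olig2+. A few of the named peaks are not reported here.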

Additional observations from a re-analysis of the deposited data

Results flagged for a closer look

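The genotype change differed between NeuN+ and Olig2+ nuclei by a limma interaction test at 972 matched peaks where it was higher in NeuN+ nuclei and at 9389 where it was lower. After all 3 scalings these numbers were 822 and 4547. At promoters the median change was -0.57 in NeuN+ and 0.06 in Olig2+ nuclei.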

How the results depend on the processing

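The number of called peaks was 16701 after quantile normalization, 4900 with DESeq2 and 15750 at an adjusted p under 0.01, and 0 to 23364 with 1 library left out (limma 11278 and 14482 without WT replicate 1 and 2, edgeR's likelihood-ratio test 20060 without WT replicate 1). The 0 came from limma without SgshKO replicate 1 or 2, where 33265 and 32556 peaks had an unadjusted p under 0.05 and the prior degrees of freedom fell from 16.6 to 1.81; edgeR's likelihood-ratio test then called 20470 and 18971. In those fits the lone library is assumed to vary like the other group, and no share of higher calls could be given for limma. That share, 34.3% with deposited totals, was 28.7% without the lowest peaks, 27.8% at a peak score of 1000, 66.5% scaled to tags in peaks, 57.7% with median of ratios, 62.0% after quantile normalization, 58.2% with edgeR's quasi-likelihood test, 58.1% with its likelihood-ratio test and 54.5% with DESeq2, and 40.4% to 60.3% with 1 library left out (limma 43.3% without WT replicate 1; likelihood-ratio test 59.6% and 58.3% without WT replicate 1 and 2, 59.4% without SgshKO replicate 2). The promoter minus distal difference was -0.36 with a pseudocount of 5, -0.25 after quantile normalization and -0.47 at a peak score of 1000. The Sgsh change was -1.12 with DESeq2 and -1.57 to -0.78 with 1 library left out, and the uncalled ones were -0.97 and -1.01 (limma, without WT or SgshKO replicate 1), -1.52 (limma, without SgshKO replicate 2), -0.78 and -0.86 (likelihood-ratio test, without WT or SgshKO replicate 1). Of the 15256 held peaks DESeq2 called 4030, and 0 to 13241 were called with 1 library left out (limma 7445 and 8710 without WT replicate 1 and 2). The Olig2+ difference was called at 6635 pairs after quantile normalization and at 7812 to 10189 with 1 library left out. Among promoters with a window 2214 were called after centring and 1600 after the GC correction. The Mitf promoter turned to 0.14 after quantile normalization. The cause was not tested.

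With a replicate block limma called 35764 peaks and all 15256 held ones. Same-numbered libraries did not deviate together (correlation 0.0036). With 2 libraries per genotype and few reads per peak, this cannot show whether the numbers pair the samples, and the labels do not say. Over 136 single peaks, 2471 alternative values kept direction and call, 342 kept only the direction, 5 passed the threshold anew and 1 reversed. A median of 17 to 22 reads per peak limits what single low peaks can show.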
